A study of Schizosaccharomyces pombe with 6 samples.

Results

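The genes described here are the 9 core autophagy genes of fission yeast (*Schizosaccharomyces pombe*) *atg1*, *atg2*, *atg5*, *atg7*, *atg8*, *atg9*, *atg11*, *atg13* and *atg17*. They were chosen by the common name that the deposited gene annotation gives each systematic ID, not by their values, and they are 9 of the 6986 IDs and of the 5126 protein-coding genes in the count table. Transcript levels were measured by strand-specific, paired-end sequencing of poly(A)+ RNA in 3 libraries of wild-type cells (mating type h+) and 3 libraries of *spx1*Δ cells (h+ *spx1*Δ::*kanMX*). Both strains were vegetative, grown to log phase in YES, a rich medium, at 30°C, and each group was 1 strain, so that anything else that differs between these strains cannot be told apart from the deletion. The *spx1* gene encodes a protein with an SPX domain, a sensor of inositol pyrophosphates, joined to a RING finger of the ubiquitin ligase type, and the comparison asks how transcript levels differ when it is absent. The RNA came from whole cultures, so fewer cells with a transcript and less transcript per cell cannot be told apart.

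Macroautophagy encloses cytoplasm in a double membrane, the autophagosome, which fuses with the vacuole, where its content is broken down. The Atg1 kinase complex starts the process, Atg9 vesicles and the lipid transfer protein Atg2 bring lipid to the growing membrane, and the ubiquitin-like proteins Atg8 and Atg12 are conjugated so that Atg8 becomes anchored in that membrane. Autophagy is induced in fission yeast by nitrogen starvation, and the cells compared here were fed.

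The total count per library ranged from 11539278 to 15282140 in wild-type cells and from 20929960 to 24696086 in *spx1*Δ cells, so that every mutant library was deeper than every wild-type library. The core genes were covered by 406 to 4317 counts per gene and library. The deleted gene, *spx1* (SPAC6B12.07c), had normalized counts of 5436, 5290 and 5153 in wild-type cells and of 2163, 2185 and 2062 in *spx1*Δ cells. In the reference annotation its transcript has 2381 bases, of which 968 lie outside the coding sequence that the *kanMX* cassette replaced, and the table does not tell which part of the gene the remaining counts came from. *spx1*Δ replicate 1 stood apart from the other mutant libraries. Its Pearson correlation with the wild-type libraries over log2(normalized count + 1) was 0.972 to 0.973, against 0.912 to 0.935 for *spx1*Δ replicates 2 and 3. Calls that changed without this library are given with and without it.

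Of the 9 core genes, 1 (*atg2*) was higher and 3 (*atg1*, *atg8* and *atg11*) were lower in *spx1*Δ than in wild-type cells at an adjusted *P* value of ≤0.05 by the quasi-likelihood test of edgeR, and 5 did not pass. For the whole table the same test called 27.6% of 6127 genes higher and 25.4% lower, and for the 4986 protein-coding genes in it 21.2% were called higher and 30.2% lower. The number of core genes called, 4 of 9, was thus no higher than the share of all coding genes called. The normalized counts of the strains did not overlap for the 4 genes called and overlapped for the other 5, whereas they did not overlap for 65.5% of coding genes. In the main fit (all genes, all 6 libraries, TMM-scaled), no core gene reached the thresholds applied in the study. These were a change of ≥2-fold, an adjusted *P* value of ≤0.05 and a mean normalized count of ≥100 in the higher strain. They were reached by 5.9% of coding genes in either direction. The median log2 fold change of *spx1*Δ over wild type was -0.03 for the core genes, -0.08 for coding genes and -0.01 for all genes tested. When coding genes alone were scaled, fitted and adjusted over, 1295 of them were higher and 1191 lower, against 1056 and 1507 in the fit of all genes, and the calls for the 9 core genes were 1 higher and 3 lower in both. *atg2* passed 2-fold in the fit of coding genes alone (log2 fold change 1.03, adjusted *P* = 0.0128 by edgeR). It also did so when libraries were scaled by total counts alone (1.002, adjusted *P* = 0.0122) and without *spx1*Δ replicate 1 (1.15).

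**Figure D1:**
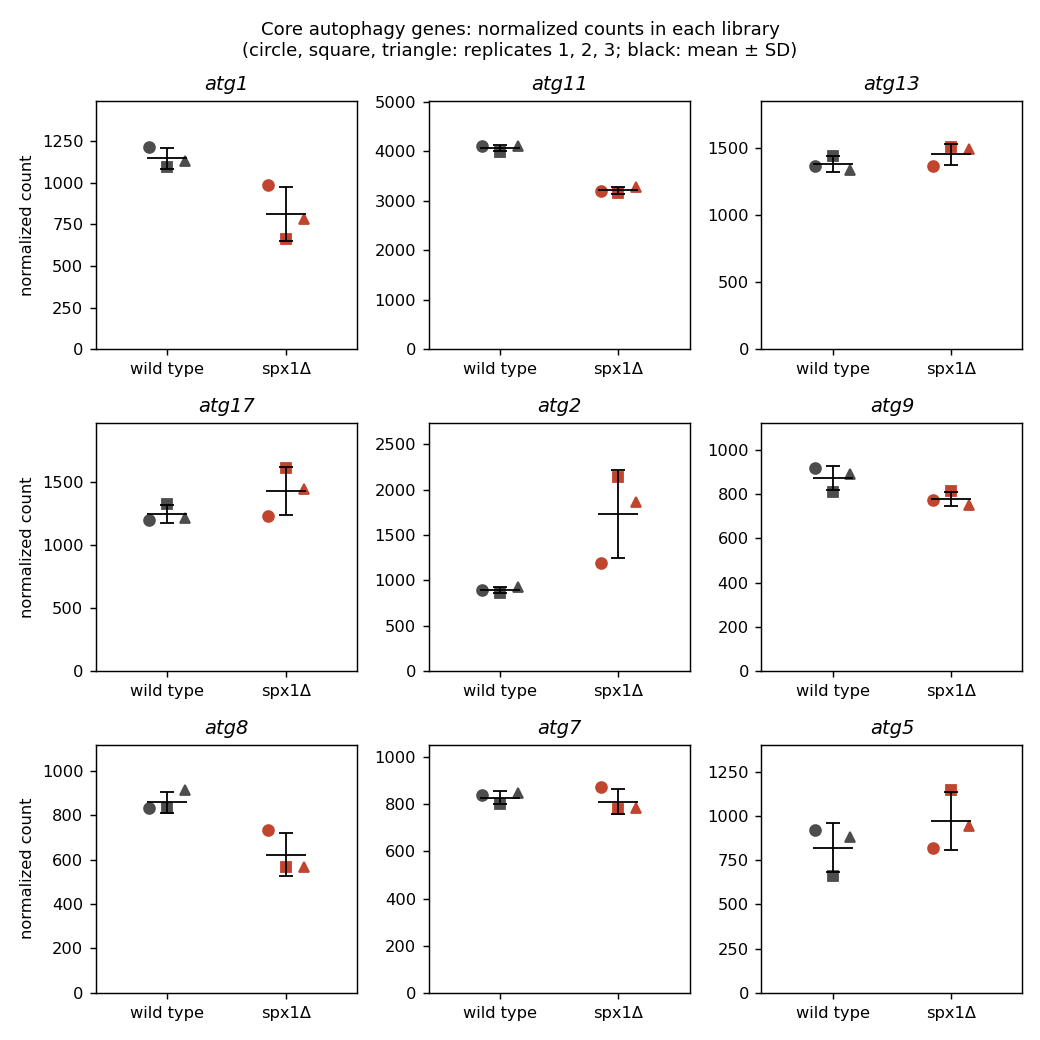
Normalized counts (y axis, starting at 0) of the 9 core autophagy genes in the 3 wild-type (gray) and 3 *spx1*Δ (red) libraries, with circle, square and triangle for replicates 1, 2 and 3 and the mean ± SD in black. The strains separate for *atg1*, *atg11*, *atg2* and *atg8*, and for *atg1*, *atg2* and *atg8* the mutant replicate 1 lies nearest to wild type.

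*atg2* had the largest change among the core genes. Atg2 is the large protein that transfers lipid from the endoplasmic reticulum to the growing autophagosomal membrane. Its transcript had normalized counts of 899, 861 and 926 in wild-type cells (895 ± 33.0, mean ± SD, n = 3) and of 1193, 2137 and 1859 in *spx1*Δ cells (1730 ± 485, n = 3). Every mutant library lay above every wild-type library, and the mutant libraries themselves spread from 0.41 to 1.25 above the wild-type mean on the log2 scale. The transcript was 1.93-fold higher in *spx1*Δ cells (log2 fold change 0.95 ± 0.21 SE, 95% interval 0.46 to 1.44, adjusted *P* = 0.0119). Replicate 1 was the mutant library nearest to wild type, and without it the log2 fold change was 1.15 (adjusted *P* = 4.0e-07). Without wild-type replicate 2 it was 0.92 and no longer passed (adjusted *P* = 0.0512).

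*atg9*, which encodes the multispanning membrane protein that Atg2 works with, did not show the same difference. It had normalized counts of 917, 812 and 889 in wild-type cells and of 774, 813 and 750 in *spx1*Δ cells, so the ranges overlapped through wild-type replicate 2. Its log2 fold change was -0.16 ± 0.08 SE (95% interval -0.35 to 0.02, adjusted *P* = 0.114). The interval excludes a change of the size of the point estimate for *atg2* in either direction.

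The 4 core genes of the Atg1 kinase complex did not move as a unit. Atg1 is the serine/threonine kinase that starts autophagosome formation. *atg1* had normalized counts of 1217, 1094 and 1133 in wild-type cells (1148 ± 62.8, n = 3) and of 988, 665 and 783 in *spx1*Δ cells (812 ± 163, n = 3). The highest mutant library, replicate 1, was below the lowest wild-type library. *atg1* fell by 0.50 on the log2 scale (± 0.15 SE, 95% interval -0.85 to -0.15, adjusted *P* = 0.0295). Without *spx1*Δ replicate 1 the log2 fold change was -0.67 (adjusted *P* = 4.9e-05). It was -0.46, -0.54 and -0.50 without wild-type replicates 1, 2 and 3 and -0.47 without *spx1*Δ replicate 3, and in each of these fits it did not pass (adjusted *P* = 0.0980, 0.0699, 0.0812 and 0.0988).

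Atg11 is a large coiled-coil protein that in fission yeast serves to activate Atg1. *atg11* was the most abundant of the core transcripts and the one with the most even libraries. Its normalized counts were 4113, 3996 and 4106 in wild-type cells (4072 ± 65.8, n = 3) and 3196, 3153 and 3282 in *spx1*Δ cells (3210 ± 65.6, n = 3). All 3 mutant libraries lay below the wild-type mean by nearly the same amount, 0.35, 0.37 and 0.31 on the log2 scale for replicates 1, 2 and 3. *atg11* fell by 0.34 on the log2 scale (± 0.05 SE, 95% interval -0.46 to -0.23, adjusted *P* = 0.00390). It was the only core gene called under all 13 alternative settings, including each of the 6 fits with 1 library left out, in which its log2 fold change was between -0.36 and -0.33.

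Atg13 and Atg17 are the regulatory and scaffold subunits of the complex. *atg13* had normalized counts of 1367, 1443 and 1333 in wild-type cells and of 1364, 1505 and 1495 in *spx1*Δ cells. Replicate 1 of the mutant lay within the wild-type range and the other mutant libraries above it. The log2 fold change of *atg13* was 0.08 ± 0.07 SE (95% interval -0.09 to 0.24, adjusted *P* = 0.370). *atg17* had its mutant libraries in the same order, with 1200, 1329 and 1218 in wild-type cells and 1236, 1614 and 1448 in *spx1*Δ cells. Its log2 fold change was 0.20 ± 0.11 SE (95% interval -0.06 to 0.46, adjusted *P* = 0.158). Without *spx1*Δ replicate 1 it was 0.29 and passed the test (adjusted *P* = 0.00336).

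Among the core genes of the conjugation systems, *atg8* was lower and *atg7* and *atg5* did not pass. Atg8 is the ubiquitin-like protein that is coupled to phosphatidylethanolamine and marks the autophagosome. *atg8* had normalized counts of 830, 831 and 911 in wild-type cells (858 ± 46.6, n = 3) and of 734, 566 and 565 in *spx1*Δ cells (622 ± 97.5, n = 3). Every mutant library was below every wild-type library, replicate 1 by the least. *atg8* fell by 0.46 on the log2 scale (± 0.12 SE, 95% interval -0.76 to -0.17, adjusted *P* = 0.0216), and without *spx1*Δ replicate 1 the log2 fold change was -0.61 (adjusted *P* = 3.9e-05). With any of the other 5 libraries left out it was -0.49 (without wild-type replicate 1 or 2), -0.41 (without wild-type replicate 3) or -0.40 (without *spx1*Δ replicate 2 or 3), and it did not pass (adjusted *P* = 0.0554 to 0.0826).

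Atg7 is the E1-like enzyme that activates both Atg8 and Atg12. *atg7* had normalized counts of 839, 799 and 846 in wild-type cells and of 871, 779 and 782 in *spx1*Δ cells, with 1 mutant library above the wild-type range and the others below it. Its log2 fold change was -0.03 ± 0.08 SE (95% interval -0.22 to 0.15, adjusted *P* = 0.744), and its sign turned when the libraries were scaled by total counts alone (0.016) or coding genes alone were fitted (0.044). Atg5 is the protein to which Atg12 is attached. *atg5* had normalized counts of 921, 662 and 879 in wild-type cells and of 821, 1145 and 943 in *spx1*Δ cells. It was the core gene with the widest spread in wild-type cells, with a coefficient of variation of 16.9% against 1.61% to 6.24% for the other 8. Its log2 fold change was 0.24 ± 0.17 SE (95% interval -0.16 to 0.64, adjusted *P* = 0.258), and without *spx1*Δ replicate 1 it was 0.34 and passed (adjusted *P* = 0.0360).

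Across the 9 genes *spx1*Δ replicate 1 was the mutant library closest to the wild-type mean for 7 and lay between the other mutant libraries for *atg9* and *atg11*. With this library left out, 3 core genes were higher (*atg2*, *atg5* and *atg17*) and 3 lower (*atg1*, *atg8* and *atg11*). The counts of all genes called rose with the same library left out, to 2268 higher and 2377 lower of 6171 tested, against 1689 and 1555 of 6127 with all 6 libraries. With any other library left out, 936 to 1323 genes were higher and 555 to 1070 lower.

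**Figure D2:**
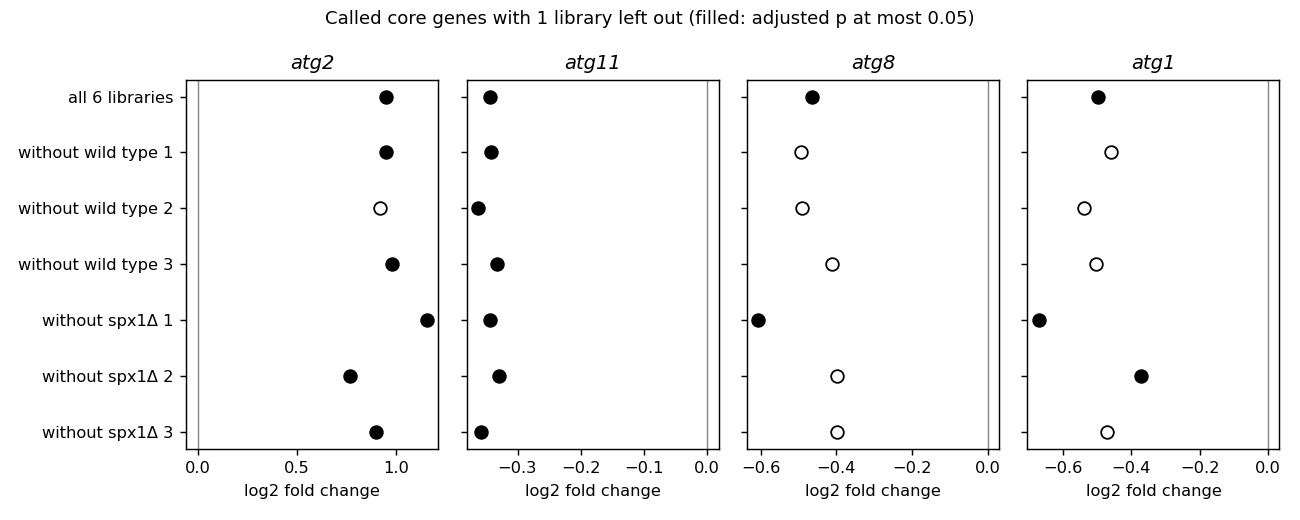
Log2 fold change of *spx1*Δ over wild type (x axis, scaled separately in each panel) for the 4 core genes called, in the fit of all 6 libraries and with each library left out (y axis). Filled points had an adjusted *P* value of ≤0.05 by edgeR: *atg11* stayed filled in every fit, *atg2* lost its call without wild-type replicate 2, and *atg1* and *atg8* lost theirs in 4 and 5 of the 6 fits.

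The rest of the pathway was described through 24 other autophagy genes, that is, the other coding genes named *atg* with a number and 8 further genes of autophagy or vacuolar breakdown. Of these, 5 were higher, 4 were lower and 15 did not pass, beside 21.2% higher and 30.2% lower of all coding genes. Their median log2 fold change was -0.07, against -0.08 for coding genes. The counts of the strains did not overlap for 13 of the 24, against 65.5% of coding genes. Without *spx1*Δ replicate 1, 5 were higher and 8 lower, the additional 4 being *atg12*, given with its step, and *atg10* (log2 fold change -0.35, adjusted *P* = 0.0209), *atg1801* (-0.43, adjusted *P* = 0.00968) and *ctl1* (-0.17, adjusted *P* = 0.0367), which are named for this change of call. Without this library, 2268 of all 6171 genes tested were called higher and 2377 lower. In the main fit, *atg16* was the only gene of either list that reached the thresholds applied in the study. Arranged by step, the 33 genes included calls in both directions in 3 of the 6 groups.

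In the Atg1 kinase complex, the fifth gene, *atg101*, moved against *atg1* and *atg11*. Atg101 is the subunit that holds Atg13 in its active form. *atg101* had normalized counts of 214, 233 and 234 in wild-type cells and of 267, 363 and 373 in *spx1*Δ cells, with no overlap. Its log2 fold change was 0.56 ± 0.16 SE (adjusted *P* = 0.0261). It passed without *spx1*Δ replicate 1 (0.69, adjusted *P* = 0.000153) but with none of the other 5 libraries left out, where its log2 fold change was 0.47 to 0.58 (adjusted *P* = 0.0674 to 0.0994).

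None of the 4 genes of the phosphatidylinositol 3-kinase complex, which makes the lipid signal that recruits later factors, passed the test. Their log2 fold changes were between -0.18 and 0.01, with 0.01 for *atg6*, the Beclin-type subunit (95% interval -0.23 to 0.24, adjusted *P* = 0.964), and -0.04 for *atg14* (95% interval -0.20 to 0.11, adjusted *P* = 0.599). The sign turned under some settings for *atg6* and *atg14*. *pik3*, which encodes the kinase itself, had -0.18 and passed only without *spx1*Δ replicate 2 (-0.24, adjusted *P* = 0.0421). In the group of Atg9, Atg2 and the lipid-binding Atg18 proteins, *atg2* was the only 1 of 6 genes called. Of all coding genes, 21.2% were called higher and 30.2% lower, which are the shares to set beside both groups.

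The conjugation genes held the largest rise and went in both directions. Atg16 binds the Atg12-Atg5 conjugate and places it on the membrane. *atg16* had normalized counts of 358, 378 and 388 in wild-type cells (374 ± 15.3, n = 3) and of 558, 1056 and 879 in *spx1*Δ cells (831 ± 252, n = 3). The order of the mutant libraries was that of *atg2*, with replicate 1 the lowest and replicate 2 the highest. It was 2.22-fold higher (log2 fold change 1.15 ± 0.23 SE, adjusted *P* = 0.00928), and it passed the test in every fit with 1 library left out. Its log2 fold change was 1.37 without *spx1*Δ replicate 1 and 0.94, below 2-fold, without *spx1*Δ replicate 2.

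Atg4 is the protease that trims Atg8 before its coupling and releases it afterward. *atg4* had normalized counts of 783, 875 and 842 in wild-type cells and of 948, 1556 and 1471 in *spx1*Δ cells, with no overlap. Its log2 fold change was 0.67 ± 0.19 SE (adjusted *P* = 0.0250). It passed without *spx1*Δ replicate 1 (0.86, adjusted *P* = 1.8e-06), whereas with any other library left out its log2 fold change was 0.54 to 0.70 (adjusted *P* = 0.0587 to 0.0882).

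Atg3, the E2-like enzyme for Atg8, was encoded by a transcript with 701, 721 and 725 normalized counts in wild-type cells and 842, 873 and 945 in *spx1*Δ cells. The log2 fold change of *atg3* was 0.31 ± 0.07 SE (adjusted *P* = 0.0157), and it did not pass without wild-type replicate 1, 2 or 3 or *spx1*Δ replicate 3, where it was 0.26 to 0.32 (adjusted *P* = 0.0551 to 0.0703). For *atg12*, the second ubiquitin-like protein, the log2 fold change was -0.44 ± 0.17 SE (95% interval -0.85 to -0.03, adjusted *P* = 0.0684), from normalized counts of 135, 130 and 128 in wild-type cells and 116, 90.8 and 83.4 in *spx1*Δ cells. Its libraries did not overlap, and without *spx1*Δ replicate 1 it was -0.59 and passed (adjusted *P* = 0.00529).

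**Figure D3:**
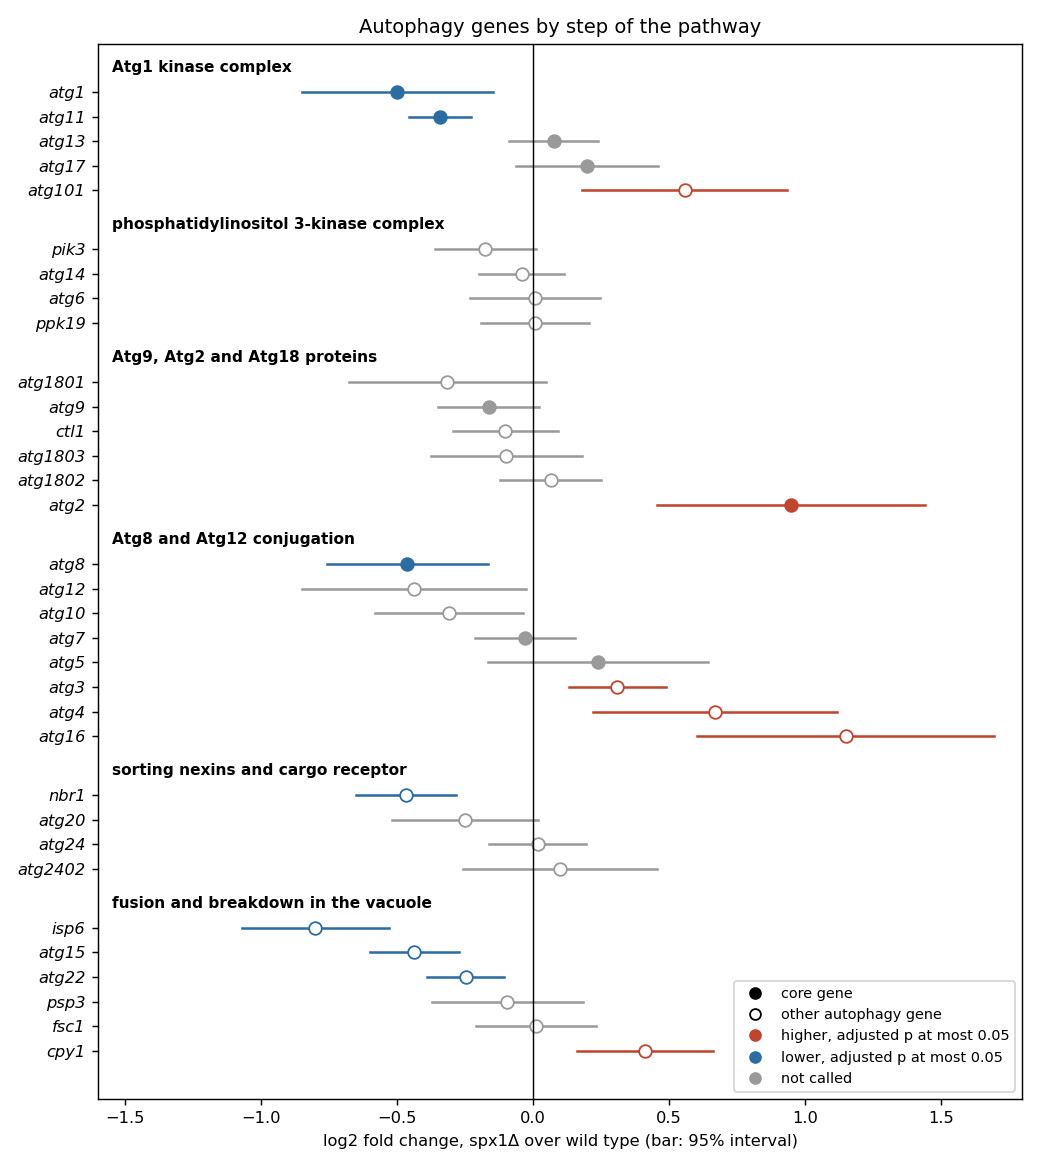
Log2 fold change of *spx1*Δ over wild type with its 95% interval (x axis) for the 9 core genes (filled) and 24 other autophagy genes (open), grouped by step (y axis). Red and blue mark genes higher and lower at an adjusted *P* value of ≤0.05, from *atg16* at 1.15 to *isp6* at -0.80, and gray marks the 20 that did not pass.

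Of the 10 genes for sorting nexins, the cargo receptor and fusion and breakdown in the vacuole, 4 were lower, 1 was higher and 5 did not pass. These stand beside 30.2% lower and 21.2% higher of all coding genes. Nbr1, the receptor that carries hydrolases into the vacuole, had a transcript with 1649, 1593 and 1622 normalized counts in wild-type cells and 1287, 1124 and 1106 in *spx1*Δ cells. *nbr1* fell by 0.47 on the log2 scale (± 0.08 SE, adjusted *P* = 0.00561), with no overlap between strains. *isp6*, which encodes a vacuolar serine protease, had 2499, 2749 and 2538 in wild-type cells and 1748, 1354 and 1365 in *spx1*Δ cells. It had the largest decrease of the 33 genes, with a log2 fold change of -0.80 ± 0.11 SE (adjusted *P* = 0.00410).

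*atg15*, encoding the lipase that opens autophagic bodies, fell by 0.44 on the log2 scale (± 0.07 SE, adjusted *P* = 0.00505). *nbr1*, *isp6* and *atg15* passed in each of the 6 fits with 1 library left out, and without *spx1*Δ replicate 1 their log2 fold changes were -0.54, -0.94 and -0.48. *atg22*, encoding a vacuolar amino acid exporter, fell by 0.25 (± 0.06 SE, adjusted *P* = 0.0154) but did not pass without wild-type replicate 2 (-0.24), wild-type replicate 3 (-0.23) or *spx1*Δ replicate 3 (-0.25), nor in the fit of coding genes alone (-0.17). *cpy1*, which encodes the vacuolar carboxypeptidase Y, went the other way, with a log2 fold change of 0.41 ± 0.10 SE (adjusted *P* = 0.0189). Like *atg101* and *atg4*, it passed without *spx1*Δ replicate 1 (0.50, adjusted *P* = 5.9e-05) and with none of the other libraries left out, where it was 0.36 to 0.44 (adjusted *P* = 0.0538 to 0.0810).

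Genes that work together were also compared by the ratio of their counts within each library, where depth and scaling cancel. The ratio of *atg2* to *atg1* counts was 0.739, 0.787 and 0.818 in wild-type libraries and 1.21, 3.21 and 2.37 in *spx1*Δ libraries, a 2.69-fold difference. The ratio of *atg2* to *atg9* was 0.980, 1.06 and 1.04 in wild-type and 1.54, 2.63 and 2.48 in *spx1*Δ libraries. In both, *spx1*Δ replicate 1 was the lowest mutant library and still above all wild-type libraries.

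The ratio of *atg4* to *atg8*, the protease and its substrate, was 0.943, 1.05 and 0.923 in wild-type and 1.29, 2.75 and 2.60 in *spx1*Δ libraries, a 2.16-fold difference. That of *atg16* to *atg5* was 1.81-fold higher and that of *atg101* to *atg13* was 1.38-fold higher in *spx1*Δ libraries, again without overlap. The 5 ratios were chosen after the values were seen. Each set a gene called higher over a gene not called higher, so their direction follows from that choice. Each ratio had *P* = 0.1 in a two-sided exact permutation test (also 0.1 after adjustment over the 5), the smallest that 3 against 3 libraries allow. These ratios concern counts, not proteins, and are not levels per length.

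**Figure D4:**
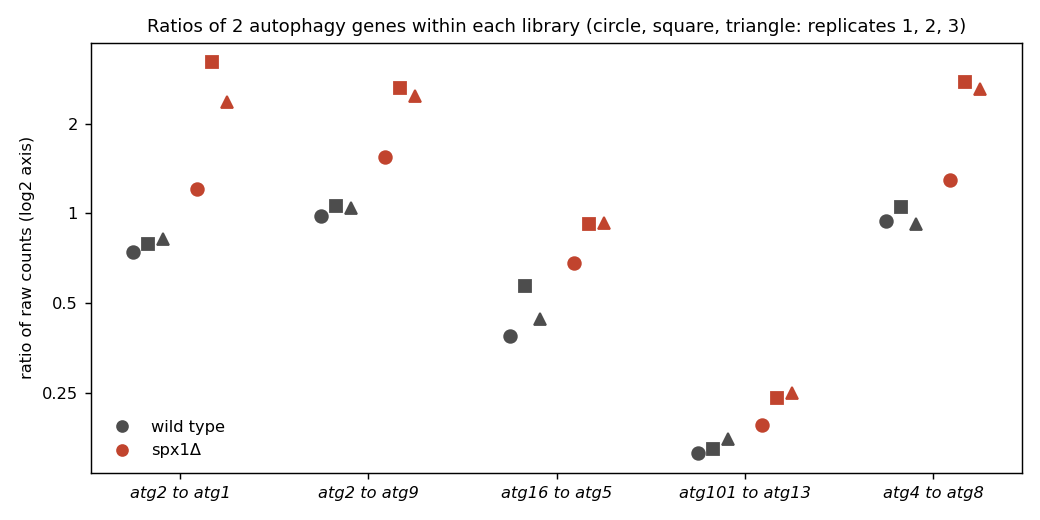
Ratio of the raw counts of a pair of autophagy genes within each library (y axis, log2 scale) for 5 pairs (x axis), with circle, square and triangle for replicates 1, 2 and 3 of wild type (gray) and *spx1*Δ (red). In each pair the 3 mutant libraries lie above the 3 wild-type libraries, by 1.38-fold (*atg101* to *atg13*) to 2.69-fold (*atg2* to *atg1*). The pairs were chosen after the values were seen, each with a gene called higher as numerator.

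Levels between genes were compared as normalized counts per kb of annotated exon. In wild-type cells the order was *atg11* (1312 ± 21.2 per kb, SD, n = 3), *atg8* (1017 ± 55.3), *atg5* (871 ± 148), *atg13* (494 ± 20.1), *atg17* (457 ± 25.5), *atg1* (412 ± 22.5), *atg7* (389 ± 12.0), *atg9* (359 ± 22.4) and *atg2* (177 ± 6.53). The ranges of neighbors overlapped for *atg13* and *atg17*, for *atg1* and *atg7* and for *atg7* and *atg9*, and those of the other neighbors did not. The median over 4981 coding genes was 841 per kb, so that *atg11*, *atg8* and *atg5* lay above it and the other 6 below, with *atg2* at the 8.39 percentile.

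In *spx1*Δ cells *atg2* stood at 342 ± 96.0 per kb (19.5 percentile) and was no longer the lowest. That place was taken by *atg1* at 291 ± 58.5 per kb, whose range overlapped that of its neighbor *atg9* (321 ± 13.1). *atg11* (1034 ± 21.1) and *atg5* (1030 ± 174) led the order with overlapping ranges, followed by *atg8* at 738 ± 116. The core genes thus spanned from 177 to 1312 per kb in wild-type cells and from 291 to 1034 per kb in *spx1*Δ cells, against a median of coding genes of 818 per kb in the mutant.

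**Figure D5:**
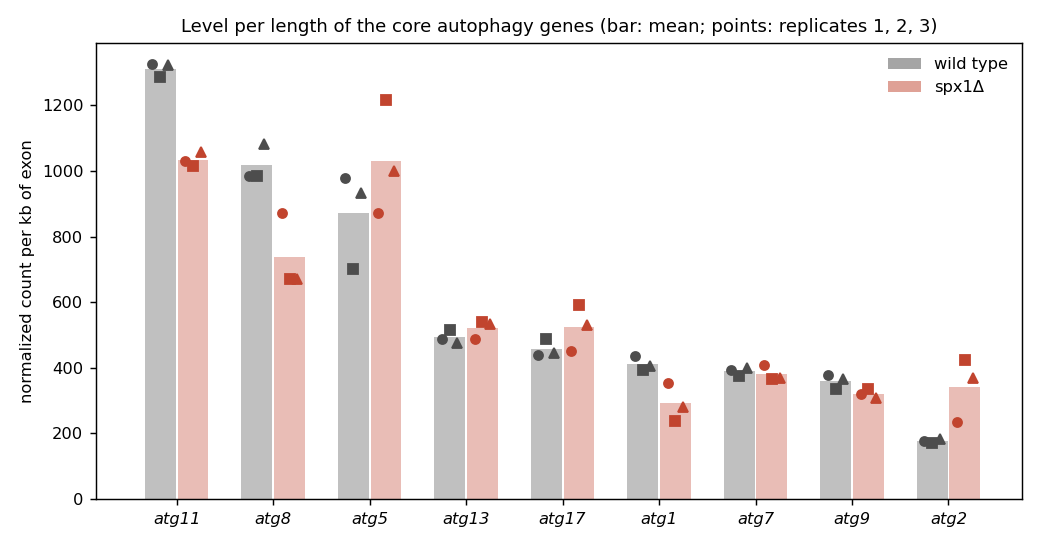
Normalized count per kb of exon (y axis, from 0) of the 9 core genes, ordered by their wild-type mean (x axis), with bars for the mean of 3 libraries and points for replicates 1, 2 and 3 of wild type (gray) and *spx1*Δ (red). *atg11*, *atg8* and *atg5* lie well above the other 6, and *atg2* moves from 177 per kb in wild type to 342 in *spx1*Δ.

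In the reference annotation the core genes lie on chromosomes I (*atg11*, *atg13* and *atg17*), II (*atg2*, *atg5*, *atg7*, *atg8* and *atg9*) and III (*atg1*). Of the 9, 7 overlap a neighboring coding gene, 6 of them on the opposite strand. For these 6, reads of both genes could be told apart only if counting used strand, and the setting is not stated for this step. Shared bases were counted from gene start to gene end, introns included, whereas gene lengths are exon bases. The longest overlap was that of *atg7* (exon length 2126) with *mde4*, over 1745 bases. *mde4* was itself higher (log2 fold change 0.37, adjusted *P* = 0.0149). *atg17* shared 1276 of its 2732 bases with *rio1*, which was higher too (log2 fold change 0.52, adjusted *P* = 0.00427). *atg13* shared 30 bases with *bud22* (log2 fold change 0.55, adjusted *P* = 0.00577). *atg5* (exon length 942) shared 75 bases with *usp105*, whose mean normalized count in wild-type cells was 4140, against 821 for *atg5*. *atg9* shared 113 of its 2429 bases with SPBC15D4.08c (wild-type mean 73.7) on the same strand, where strand cannot tell reads apart. The part of these neighbors in the counts of *atg5*, *atg7*, *atg9*, *atg13* and *atg17* was not tested.

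Of the called genes, *atg8* (exon length 843) shared 132 bases with *rnf10* (log2 fold change -0.04, adjusted *P* = 0.640). *atg1* (exon length 2788) shared 54 bases with *thg1* (-0.26, adjusted *P* = 0.169). *atg2* and *atg11* overlap no coding gene. A noncoding RNA is annotated opposite 828 bases of *atg8*, introns included. The reference annotates 10 noncoding RNAs opposite core genes, 4 of them opposite *atg2*. None of these has an ID in the deposited counts, and no antisense RNA there is named for a core gene, so none could be analysed.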

How the data were processed

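The deposited count table gives whole-number counts of reads per gene as the authors obtained them, before scaling, for 6 libraries of poly(A)+ RNA. Per the labels and methods, the authors mapped reads to ASM294v2 with HISAT2 2.1.0 and counted them with HTSeq 0.10.0. No version was found for SAMtools or DESeq2. Only names and gene types were taken from the other deposited file, in which the authors compared strains with DESeq2. Its fold changes, p-values and averages stayed out.

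After 1 duplicate ID was dropped, counts were TMM-scaled, passed through filterByExpr and tested, two-sided, with glmQLFit and glmQLFTest in edgeR 4.0.16 (R 4.3.3, limma 3.58.1), with Benjamini-Hochberg adjustment over 6127 genes. Normalized counts are counts brought to the mean effective library size. The standard error is the absolute log2 fold change over the square root of F. The 3 libraries of a group are replicates of a single strain, so P values measure the spread between cultures of that strain. The test was checked on simulated data. Alternatives were DESeq2 1.42.0, limma-voom, other scalings, no filter, a replicate block and leaving out each library.

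The reference annotation, of a later build, served for exon lengths and overlaps. All core genes were named, and of 24 other autophagy genes those called and *atg12*, *atg6* and *atg14*. Outside that rule, *atg10*, *atg1801*, *ctl1* and *pik3* were named because their call changed under an alternative. *ppk19*, *atg24*, *fsc1* and *psp3* were named because their sign changed, and *atg1803* for its antisense RNA. *pik3* and *ppk19* were matched as *vps34* and *vps15* by synonym, and *epr1* matched no ID. The members and lists were chosen with earlier results of these data known.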

Additional observations from a re-analysis of the deposited data

How the results depend on the processing

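The counts of core genes called, 1 higher and 3 lower, were the same under each of the 7 alternatives that kept all libraries. With the replicate block they were also 1 and 3, and 5 and 4 for the other autophagy genes. The labels do not say whether same-numbered libraries share anything. Deviations of same-numbered libraries correlated at 0.109, 0.0339 and 0.0496, and not every library correlated best with its own number. With 3 libraries per strain, these values cannot decide whether the numbers pair the libraries. With the block 1521 of all genes were called higher and 1400 called lower. When each library was left out in turn, core genes higher were 0 to 3 and lower 1 to 3, other autophagy genes higher 1 to 5 and lower 3 to 8, and all genes higher 936 to 2268 and lower 555 to 2377. The cause was not tested. Some log2 fold changes near 0 in genes not called changed sign: *atg7* (0.016 by total counts, 0.044 in the fit of coding genes alone), *atg14* (0.0069 and 0.035), *atg6* (-0.0028 with no filter) and *ppk19* (-0.0022 by limma-voom, -0.0027 with no filter), and, over the fits with 1 library left out, *atg24* (-0.049 to 0.071, and -0.00017 without wild-type replicate 1), *atg6* (-0.060 to 0.058), *fsc1* (-0.063 to 0.088), *ppk19* (-0.050 to 0.066) and *psp3* (-0.19 to 0.018). By limma-voom, 4 other autophagy genes were higher, without *atg4* (adjusted *P* = 0.0554), and 5 lower, with *atg10* (adjusted *P* = 0.0475). With 3 libraries per strain no single value can reach an exact permutation *P* below 0.1. Counting error alone gives core genes a coefficient of variation of 1.58% to 4.12%, and for *atg2*, *atg7* and *atg11* in wild-type cells the spread between libraries was no larger than that.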

Other observations

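The tested coding genes whose profile over the 6 libraries came nearest to the mean profile of the 9 core genes were *avt3*, *iss1*, *ppe1*, *erm2* and *mdm28*. The Euclidean distance of their log2 normalized counts, centered on the wild-type mean, was 0.0362, 0.0466, 0.0514, 0.0558 and 0.0601, among 4953 genes compared. That mean profile lies between -0.05 and 0.03 in every library, so that likeness here means little change.

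The table holds 4 antisense RNAs named for other autophagy genes. Of all genes tested 27.6% were called higher, against 21.2% of coding genes, so the share was larger among IDs that are not coding genes. Whether an antisense RNA and its gene are linked was not tested. The antisense RNA of *atg22* (atg22-antisense-1) was higher in *spx1*Δ cells, with a log2 fold change of 0.69 (adjusted *P* = 0.00447), where *atg22* itself was lower (-0.25). That of *atg1801* (atg1801-antisense-1) was higher with a log2 fold change of 1.18 (adjusted *P* = 0.00587), where *atg1801* had -0.32 (adjusted *P* = 0.115). Those of *atg1803* (0.91, adjusted *P* = 0.0680) and *atg12* (-0.34, adjusted *P* = 0.148) did not pass.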
